A study of Mus musculus with 6 samples.

Results

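The contractile *Cnn1*-high cells of Day 10 DID cultures were 534 of 16707 Day 10 cells, and they were chosen by measured values. A Day 10 barcode counted as a cell when it held at least 3000 UMIs (unique molecular identifiers, each standing for 1 captured transcript), at most 7500 detected genes and at most 25% mitochondrial UMIs. Such a cell was a *Cnn1*-high cell when it had at least 10 *Cnn1* UMIs, at least 0.1% of its UMIs from *Spp1*, fewer than 5 *Prg4* UMIs, and fewer than 3 UMIs of *Wnt10a* and *Cd34* together. They were 272 of 8350 cells in replicate A (3.26%, exact 95% binomial interval 2.89 to 3.66) and 262 of 8357 cells in replicate B (3.14%, 2.77 to 3.53), so the share was alike in both cultures within counting error. The same limits found 182 and 83 cells in the Day 2 libraries and 159 and 164 cells in the Day 7 libraries.

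DID ("Digits in a Dish") cultures are high-density cultures of dissociated mesenchyme from distal forelimb buds of wildtype CD-1 mouse embryos at E11.5. The limb tissue was pooled before seeding and grown in a medium with fetal bovine serum. By their labels the groups differed in days of culture: Day 2, Day 7 and Day 10. Each day had its own cultures and libraries, so differences between days cannot be told apart from differences between these. Each day had 2 independent cultures, replicates A and B, each made into 1 library of 10x Genomics 3′ single-cell RNA-seq, so every value below has n = 2 libraries. The cells compared within Day 10 came from the same cultures and differed by the UMIs of the 5 genes of the rule.

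Calponin 1, the product of *Cnn1*, is an actin- and tropomyosin-binding protein of the smooth muscle contractile apparatus, and it is also found in myofibroblasts and pericytes. Genes of this apparatus are switched on by serum response factor (SRF), which binds CArG boxes together with cofactors of the myocardin family, the MRTF proteins, that enter the nucleus as actin polymerizes. The coactivators YAP and TAZ act with TEAD factors on genes such as *Ankrd1* and *Ccn2*, typically in spread cells under tension. Osteopontin, the product of *Spp1*, is a secreted phosphoprotein of bone that many other cells also make, and it binds CD44 and several integrins.

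The 6 libraries held 11518 to 20188 barcodes, of which 54126 in all passed the cell filter. At Day 10 the *Cnn1*-high cells were deeper than the other cells, with medians of 49793.5 and 50573.5 UMIs against 28754.5 and 27331, and with 6359.5 and 6390 genes against 5059.5 and 4916. Mitochondrial shares were similar, with medians of 3.27% and 2.82% against 3.65% and 3.15%. A deep cell reaches a limit of 10 UMIs more easily. Every cell of at least 10000 UMIs was also thinned to 10000. The limits were then set to 5 *Cnn1* UMIs, 10 *Spp1* UMIs, under 3 *Prg4* UMIs and under 2 *Wnt10a* and *Cd34* UMIs. The shares of these thinned cells were 2.44% and 1.92%. The medians of the *Cnn1*-high cells, 4.59 and 3.76 *Cnn1* UMIs in 10000, lie below this limit of 5. Both the limits and the cells counted thus differ from those of the rule. The upper limit of 7500 genes removed 100 cells that met every other limit from each Day 10 library, and 44 to 88 from each earlier one. Libraries shared 16 to 31 barcodes a pair, and no *Cnn1*-high cell of one library had its barcode among the *Cnn1*-high cells of another. The Scrublet doublet caller marked 3 and 0 Day 10 cells, too few to have worked, so no doublets were removed, and 26 and 33 *Cnn1*-high cells lay among the 10% of cells with the highest doublet scores.

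The genes of the rule gave these levels. Counts were summed over the cells of a group in a library and are given as CPM (counts per 1000000 UMIs of that group), for replicates A and B in that order. *Cnn1* (chr9:22099216-22109630, GRCm38, plus strand) had 561 and 491 CPM in the *Cnn1*-high cells and 101 and 90.8 CPM in the other Day 10 cells. *Spp1* (chr5:104435118-104441050, plus strand) had 4024 and 4184 CPM against 1292 and 1374 CPM. *Prg4*, the lubricin gene of joint surfaces, had 3.94 and 2.51 CPM against 62.2 and 62.0 CPM. These differences are the choice itself and carry no test.

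Cells just inside and just outside the *Cnn1* and *Spp1* limits were compared. Cells with 10 or 11 *Cnn1* UMIs that were let in numbered 43 and 51, and cells with 8 or 9 that met the other limits numbered 55 and 51. *Acta2* was 4995 and 5885 CPM just inside this limit and 4178 and 5508 CPM just outside, and *Tagln* was 3671 and 4821 CPM against 3359 and 4356 CPM. At the *Spp1* limit, the 29 and 20 cells with 0.1 to 0.12% had 10083.8 and 8986.5 CPM of *Acta2*, and the 31 and 37 cells with 0.08 to 0.1% had 9249.5 and 7731.5 CPM. The values on both sides of the *Cnn1* and *Spp1* limits were close, and the replicates differed from each other by as much. Cells so near a limit differ too little in UMIs to tell a continuum from separate kinds of cells. The *Prg4* limit and that on *Wnt10a* and *Cd34* were not examined in this way.

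The other Day 10 cells fell into 5 groups that do not overlap. *Cnn1*-high *Spp1*-low cells met every limit but that on *Spp1* (394 and 358 cells). *Spp1*-high *Cnn1*-low cells met every limit but that on *Cnn1* (1343 and 1371 cells). *Prg4*-positive cells had at least 5 *Prg4* UMIs (398 and 363 cells), cells with at least 3 *Wnt10a* and *Cd34* UMIs and fewer *Prg4* UMIs numbered 294 and 396, and 5649 and 5607 cells remained. A gene was called between groups at an edgeR adjusted p under 0.05 and an absolute log2 fold change of at least 1, and log2 fold changes are given with their standard errors from edgeR. Genes that vary with *Cnn1*, *Spp1* or depth from cell to cell differ between these groups through that choice, so the calls within Day 10 describe the cells and are no independent test.

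**Figure D1:**
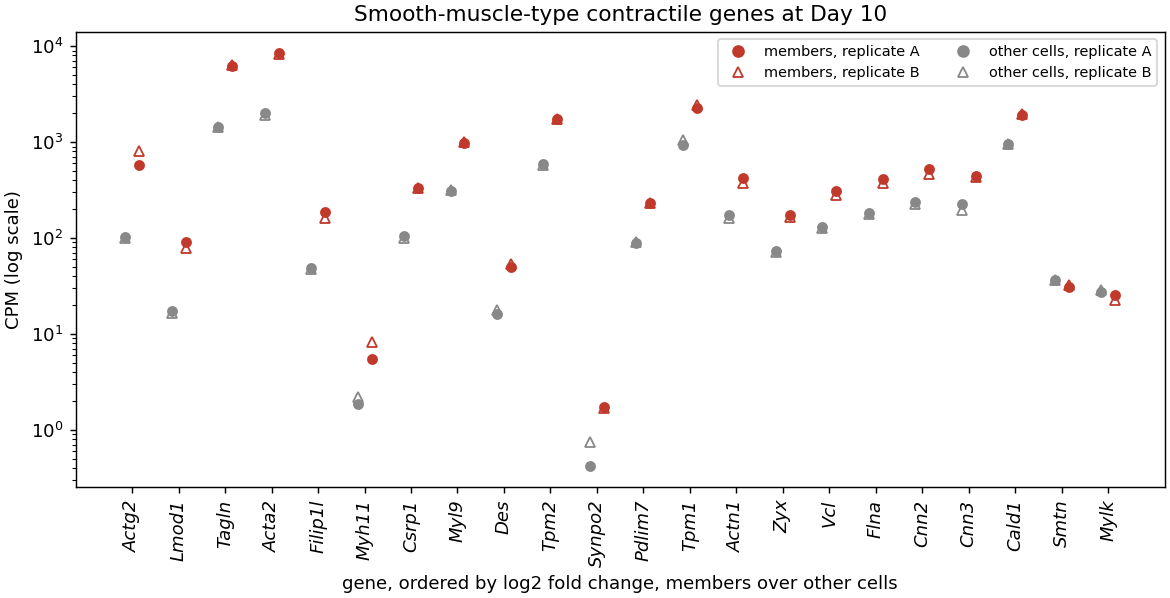
Levels of the 22 contractile genes besides *Cnn1* in the *Cnn1*-high cells (members) and all other Day 10 cells, in CPM on a log axis, with a circle for replicate A and a triangle for replicate B. For *Acta2* the *Cnn1*-high cells lie at 8503 and 8215 CPM and the other cells at 2010 and 1924 CPM, while the points of *Smtn* and *Mylk* lie close together.

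The smooth-muscle-type contractile genes were high as a group. Against the other Day 10 cells, 20 of the 22 listed genes besides *Cnn1* were called higher and 0 lower, beside 3.31% of all genes called higher and 9.02% called lower. Their median log2 fold change was 1.56 against -0.08 over all genes. The shares of all genes called are the background for every list counted against the other Day 10 cells below. Their summed level was 25527 and 25605 CPM in the *Cnn1*-high cells and 7697 and 7666 CPM in the other cells. The sum was higher in the *Cnn1*-high cells of both replicates. With the other cells drawn to the same distribution of UMIs per cell, 16 of the 22 were called higher (median 1.11), and with every cell thinned to 3000 UMIs 17 were. Without replicate B 19 were called, *Cnn3* being at 0.97.

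*Acta2*, the smooth muscle α-actin gene (chr19:34241090-34255590, minus strand), had 8503 and 8215 CPM in the *Cnn1*-high cells, 8928 and 8752 CPM in the *Cnn1*-high *Spp1*-low cells, 1874 and 2024 CPM in the *Spp1*-high *Cnn1*-low cells, 2514 and 2418 CPM in the *Prg4*-positive cells, 4245 and 2739 CPM in the *Wnt10a* or *Cd34* cells and 949 and 936 CPM in the remaining cells. The first 2 groups lay above all the rest, the *Cnn1*-high *Spp1*-low cells slightly higher in both replicates, and the log2 fold change against all other cells was 2.16 ± 0.03. *Tagln*, encoding the actin-binding protein SM22α, had 6279.6 and 6414 CPM against 1446 and 1445 CPM (2.21 ± 0.02). *Actg2*, the smooth muscle γ-actin gene, had 573 and 806 CPM against 102 and 99.9 CPM (2.83 ± 0.07). It was at 47.1 and 22.8 CPM in *Prg4*-positive cells, the lowest of the 3 groups compared directly.

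*Lmod1*, a leiomodin that nucleates actin filaments in smooth muscle, had 90.02 and 78.3 CPM against 17.3 and 16.4 CPM (2.40 ± 0.07). The regulatory light chain gene *Myl9* had 986 and 1003 CPM against 312 and 319 CPM (1.73 ± 0.03). The tropomyosin genes *Tpm2*, at 1739 and 1746 CPM against 588 and 572 CPM, and *Tpm1*, at 2273 and 2429 CPM against 922 and 1050.2 CPM, were both called higher. So were genes of focal adhesions and stress fibres, among them *Csrp1* (1.78 ± 0.04), *Filip1l* (1.94 ± 0.05), *Vcl* (1.26 ± 0.04) and *Cnn2* (1.17 ± 0.04). *Cnn2* was not called with the other cells drawn to the same depth (0.938) or without the upper limit on genes (0.931). *Vcl* was not called on cells thinned to 3000 UMIs (0.96).

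*Myh11* and *Des*, which mark mature smooth muscle, were above the other cells but below the *Cnn1*-high *Spp1*-low cells in both replicates. *Myh11*, the smooth muscle myosin heavy chain gene, had 5.44 and 8.26 CPM in the *Cnn1*-high cells and 1.88 and 2.20 CPM in the other cells (1.81 ± 0.18), and it was at 19.4 and 18.7 CPM in the *Cnn1*-high *Spp1*-low cells. *Des*, which encodes the intermediate filament protein desmin, had 50.4 and 53.6 CPM against 16.2 and 17.9 CPM (1.68 ± 0.08) and 108 and 98.7 CPM in the *Cnn1*-high *Spp1*-low cells. Neither difference from the *Cnn1*-high *Spp1*-low cells was called, but that of *Myh11* was called lower by the DESeq2 Wald test (-1.52) and with no filter on low counts (-1.51), and that of *Des* with cells thinned to 3000 UMIs (-1.18). The only listed genes not called against the other cells were *Smtn*, encoding smoothelin, at 30.9 and 32.4 CPM against 36.9 and 37.0 CPM (-0.15 ± 0.07), and *Mylk*, the myosin light chain kinase, at 25.4 and 22.5 CPM against 27.4 and 28.8 CPM (-0.15 ± 0.08).

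Contractile genes varied widely among the *Cnn1*-high cells. Per cell, *Acta2* had a median of 76.8 and 74.7 UMIs in 10000, with 10th and 90th percentiles of 33.2 and 142 in replicate A and 34.3 and 141 in replicate B. Other cells had medians of 3.75 and 3.64, and their 90th percentiles of 46.5 and 44.1 reached above the 10th percentile of the *Cnn1*-high cells. The *Cnn1*-high cells were also split in equal parts by the share of *Cnn1*, a gene of the rule. As at least 10 *Cnn1* UMIs were asked for, a low share needs a deep cell, so the split is only a description. *Acta2* was 10777 CPM in the upper against 6364 CPM in the lower part of replicate A, and 10594 against 5944 CPM in replicate B. *Tagln*, *Lmod1*, *Ankrd1*, *Foxs1* and *Ccn2* were likewise higher in the upper part of both replicates. *Spp1* was 3754 against 4279 CPM in A and 4144 against 4221 CPM in B. A split by *Spp1* gave 550 CPM of *Cnn1* in the upper and 574 CPM in the lower part of replicate A, but 507 and 475 CPM in replicate B, so the replicates differed in direction. The same split gave 8154 CPM of *Acta2* in the upper and 8879 CPM in the lower part of replicate A, and 7747 and 8692 CPM in replicate B.

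The CArG box is the SRF binding motif, written CC, 6 bases of A or T, then GG. Among RefSeq promoters (the 250 bases before a gene's start were searched, GRCm38.p6), it was found by exact match on both strands in 482 of 32851 (1.47%). Of 23 promoters of 20 contractile genes matched by symbol, *Cnn1* included, 4 held it (17.4%), those of *Cnn2*, *Filip1l*, *Myl9* and *Vcl*. These are shown because all these genes were called higher in the *Cnn1*-high cells, and the capitals mark the CArG box. All are on the plus strand, at chr10:79988504-79988583 for *Cnn2*, chr16:57549140-57549229 for *Filip1l*, chr2:156775263-156775352 for *Myl9* and chr14:20929148-20929220 for *Vcl*.
Cnn2: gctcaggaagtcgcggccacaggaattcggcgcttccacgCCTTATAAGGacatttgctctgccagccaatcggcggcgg
Filip1l: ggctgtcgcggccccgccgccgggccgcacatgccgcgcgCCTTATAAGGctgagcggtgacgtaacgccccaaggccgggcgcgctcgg
Myl9: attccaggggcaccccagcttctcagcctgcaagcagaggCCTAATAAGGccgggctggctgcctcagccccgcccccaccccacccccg
Vcl: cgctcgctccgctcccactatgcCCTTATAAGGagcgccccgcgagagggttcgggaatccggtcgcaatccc
The box began 56, 62, 161 and 227 bases before the start in this order. The MCAT motif of TEAD factors, CATTCC, was in 8 of the 23 promoters (34.8%) and in 4153 of all 32851 (12.6%). The 8 were those of *Acta2*, *Cald1*, *Flna*, *Lmod1*, *Mylk*, *Smtn*, *Tpm1* and *Vcl*. *Mylk* and *Smtn* are the listed genes that were not called higher in the *Cnn1*-high cells. A match is only a match of letters in this window.

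Fewer genes were called in the list of SRF, the myocardin family and other cofactors, named the SRF genes here. Of 9 listed genes, 4 were called higher than in the other Day 10 cells and 0 lower, with a median log2 fold change of 0.82. *Srf*, *Myocd*, *Mrtfa* and *Mrtfb* were not among the 4. *Srf* itself had 14.96 and 9.52 CPM against 7.60 and 6.89 CPM (0.82 ± 0.13, not called). *Myocd*, encoding myocardin, was near the lower end of measurement at 1.36 and 0.664 CPM against 0.621 and 0.594 CPM. The called genes were *Fhl1*, a LIM protein gene at 247 and 190.3 CPM against 82.3 and 70.6 CPM (1.58 ± 0.05), *Nexn*, encoding the actin-binding protein nexilin (1.45 ± 0.05), *Vgll3*, a TEAD cofactor (1.25 ± 0.06), and *Fhl2* (1.04 ± 0.06). *Fhl2* was below the size for a call without replicate A (0.89) and with the other cells drawn to the same depth (0.91). It was also below it on cells thinned to 3000 UMIs (0.93). Without the upper limit on genes *Fhl2* (0.80) and *Vgll3* (0.997) were below the size for a call. Without replicate B *Srf* was at 1.005 and *Myocd* at 1.16, above that size.

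Of the YAP effectors and CCN proteins, 5 of 19 were called higher and 1 lower. *Ankrd1*, a nuclear and sarcomeric ankyrin repeat protein gene, had 146 and 124 CPM in the *Cnn1*-high cells and 13.6 and 20.6 CPM in the other cells (3.08 ± 0.10), the largest increase among called genes that reached 50 CPM in either group. By group it was at 118 and 191 CPM in *Cnn1*-high *Spp1*-low cells, 5.30 and 11.03 CPM in *Spp1*-high *Cnn1*-low cells and 3.55 and 4.36 CPM in *Prg4*-positive cells. The 2 *Cnn1*-high groups overlapped and lay above the rest. *Ccn2*, encoding connective tissue growth factor, had 685 and 554 CPM against 247 and 263 CPM (1.35 ± 0.06), and the receptor tyrosine kinase gene *Axl* had 69.9 and 69.9 CPM against 26.7 and 26.3 CPM (1.48 ± 0.06). *Ccn4* (1.24 ± 0.04) and *Crim1* (1.02 ± 0.05) were also called. *Crim1* was below the size for a call without replicate A (0.85) and with the other cells drawn to the same depth (0.75). Both were below it without the upper limit on genes (0.988 and 0.80). *Ccn3* was lower, at 2.65 and 1.77 CPM against 11.1 and 9.83 CPM (-2.17 ± 0.18), while *Yap1* (0.52 ± 0.07), *Wwtr1*, which encodes TAZ (-0.08 ± 0.05), and *Tead1* (0.75 ± 0.05) were not called.

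*Ankrd1* UMIs were found in a minority of the cells. This share depends on depth, so a cell without a UMI may still express the gene. With cells thinned to 10000 UMIs, 23.5% and 23.0% of the *Cnn1*-high cells had at least 1 *Ankrd1* UMI, against 3.22% and 4.02% of the other cells. In cartilage cells, taken as those with at least 1% of their UMIs from *Col2a1* and expected to lack the gene, the shares were 1.45% and 2.02%. Without thinning the shares were 39.7% and 40.5% of *Cnn1*-high cells, 7.13% and 7.99% of the others and 4.14% and 5.57% of cartilage cells, whose median depths were 35614 and 33095.5 UMIs. Its median in the *Cnn1*-high cells was 0 in both replicates.

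*Foxs1*, a forkhead factor gene of pericytes and smooth muscle (chr2:152931898-152933208, minus strand), had 56.9 and 77.8 CPM against 11.5 and 11.1 CPM in the other cells (2.64 ± 0.11). With thinned cells, a UMI of *Foxs1* was present in 31.3% and 36.0% of the *Cnn1*-high cells, 5.62% and 6.15% of the other cells and 0.483% and 1.04% of cartilage cells. Without thinning, the median of *Foxs1* per *Cnn1*-high cell was above 0, at 0.266 and 0.417 UMIs in 10000. A cell without a UMI of *Foxs1* or *Ankrd1* may still express it. All 4 marker genes of the group were higher in it than in the other cells, *Cnn1* and *Spp1* by the rule. *Foxs1* and *Ankrd1* were taken as markers with earlier results of these data known, so their levels are a description only. *Foxs1* and *Ankrd1* were not called against the *Cnn1*-high *Spp1*-low cells. There *Foxs1* had 57.8 and 47.0 CPM (0.38 ± 0.15) and *Ankrd1* 118 and 191 CPM (-0.12 ± 0.20).

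The other mural and pericyte genes did not move together. Of 15 tested, 5 were called higher and 6 lower than in the other cells, with a median log2 fold change of 0.18. Those called higher besides *Foxs1* were *Mcam*, an adhesion molecule gene at 30.4 and 26.7 CPM against 8.83 and 7.15 CPM (1.92 ± 0.10), *Rgs4* (1.18 ± 0.11), *Heyl* (1.64 ± 0.30, but 0.85 and not called without replicate B) and *Tbx18* (1.12 ± 0.09). The pericyte receptor gene *Pdgfrb* had 42.2 and 50.8 CPM against 44.2 and 41.9 CPM (0.18 ± 0.07, not called). *Rgs5*, a G-protein regulator used as a pericyte marker, had 10.3 and 11.1 CPM against 7.77 and 11.5 CPM, which overlapped. *Ndufa4l2*, which encodes a mitochondrial protein, had 5.30 and 9.52 CPM against 114 and 122 CPM (-3.92 ± 0.09). *Cox4i2* (-2.54 ± 0.07) and *Cspg4*, the NG2 gene (-1.06 ± 0.06), were also lower. *Kcnj8*, *Abcc9* and *Higd1b*, which mark brain-type pericytes, were at most 0.215 CPM in the *Cnn1*-high cells. The calls of *Kcnj8* and *Ebf2* among the 6 lower genes were lost without replicate A, at -2.31 and -1.36, and that of *Kcnj8* also without replicate B, at -1.65. With cells thinned to 3000 UMIs 4 genes of the list were called higher and 3 lower, the calls of *Heyl*, *Kcnj8*, *Tbx2* and *Ebf2* being lost. *Rgs4* was not called with the other cells drawn to the same depth (0.84). With at least 20 *Cnn1* UMIs *Rgs4* (0.95) and *Tbx18* (0.90) were not called. The calls of *Rgs4* (0.82), *Tbx18* (0.95), *Cspg4* (-0.85) and *Tbx2* (-0.77) were lost without the upper limit on genes.

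**Figure D2:**
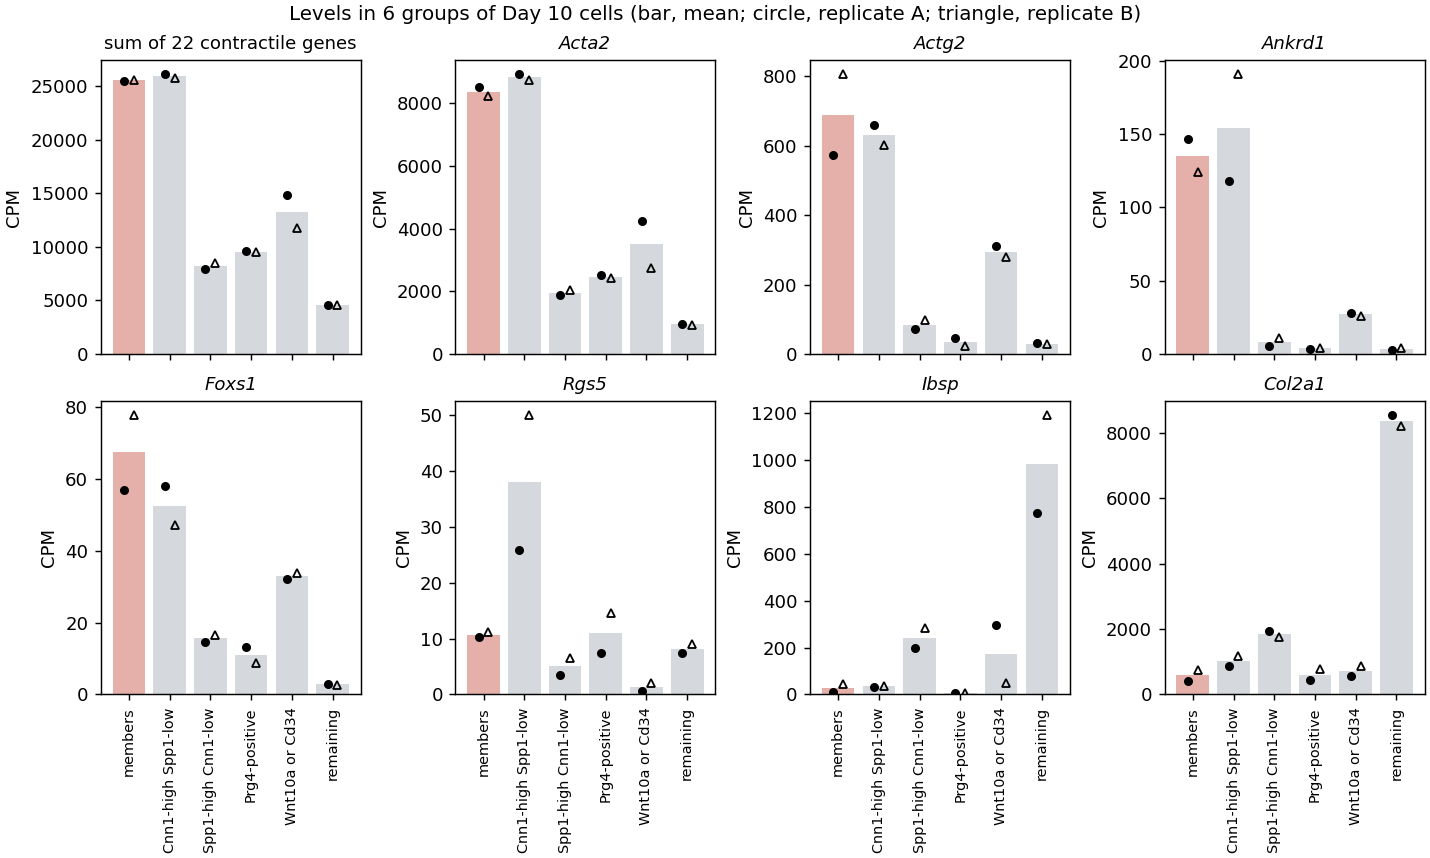
Summed contractile genes and 7 single genes in the 6 Day 10 groups (members are the *Cnn1*-high cells), in CPM, with bars for the mean of 2 libraries, a circle for replicate A and a triangle for replicate B. The first 2 bars are alike for the contractile genes, and *Ibsp* is at 10.6 and 42.9 CPM in the *Cnn1*-high cells against 196 and 285 CPM in the *Spp1*-high *Cnn1*-low cells.

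Among myofibroblast matrix genes, 4 of 24 were called higher and 2 lower, the latter near the 9.02% of all genes called lower (3.31% were called higher). *Fn1*, fibronectin, had 2078 and 2168 CPM against 1075 and 984 CPM (1.12 ± 0.03). *Thbs1*, thrombospondin 1, had 2121 and 1910.1 CPM against 956 and 847 CPM (1.24 ± 0.03), *Timp1*, a metalloproteinase inhibitor, had 1263 and 1622 CPM against 486 and 485 CPM (1.64 ± 0.04), and *Igfbp7* had 1403 and 1563 CPM against 543 and 585 CPM (1.47 ± 0.04). *Timp3* (-1.02 ± 0.04) and *Igfbp3* (-1.86 ± 0.08) were lower. *Col1a1*, the main collagen gene of bone and tendon, was not higher, at 3122 and 3025 CPM against 3375 and 2963 CPM (0.03 ± 0.03), and *Sparc* was not called (0.18 ± 0.03). Per cell, *Col1a1* ran from 17.5 to 47.7 UMIs in 10000 between the 10th and 90th percentiles in replicate A, against 2.65 to 80.2 in the other cells.

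TGF-β and activin signalling had 5 of 26 genes called higher and 2 lower, with a median log2 fold change of 0.17. Beside the 3.31% and 9.02% of all genes, the lower calls were near the background. The ligand genes were *Tgfb3*, at 131 and 123 CPM against 48.1 and 43.6 CPM (1.55 ± 0.05), *Inhba*, which encodes the activin A subunit, at 307 and 259 CPM against 122 and 124 CPM (1.27 ± 0.05), and *Inhbb*, at 4.94 and 3.47 CPM against 0.925 and 0.995 CPM (2.20 ± 0.28). The activin antagonist gene *Fstl3* was higher (1.34 ± 0.06), and the coreceptor gene *Tgfbr3* (-1.72 ± 0.18) and the pseudoreceptor gene *Bambi* (-1.01 ± 0.06) were lower. *Tgfb1* was not called (0.63 ± 0.06).

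Among other secreted factors, *Grem1*, encoding the BMP antagonist gremlin, had 80.0 and 102 CPM against 40.7 and 38.3 CPM (1.28 ± 0.07), whereas *Nog*, encoding the antagonist noggin, had 3.43 and 5.09 CPM against 41.5 and 41.7 CPM (-3.22 ± 0.11). They were on opposite sides of the other cells in both replicates. *Bmp2*, *Bmp5*, *Bmp6* and *Bmp7* were all called lower, so that 1 of 14 BMP and GDF genes was called higher and 7 lower. *Edn1*, the endothelin 1 gene, had 10.4 and 13.7 CPM against 2.29 and 3.36 CPM (2.17 ± 0.15), and *Pdgfb* was called too (1.37 ± 0.21). Of this list of VEGF, PDGF and endothelin genes, 2 of 14 were called higher and 3 lower. Beside both lists, 3.31% of all genes were called higher and 9.02% lower.

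The osteopontin receptor *Cd44* had 77.1 and 72.1 CPM in the *Cnn1*-high cells and 27.1 and 24.5 CPM in the other cells (1.61 ± 0.06). Of 16 receptor and matrix integrin genes, 3 were called higher and 1 lower, with a median log2 fold change of 0.65. Of all genes 3.31% were called higher and 9.02% lower, so the lower call was near the background. The fibronectin receptor subunit gene *Itga5* had 101 and 86.8 CPM against 37.2 and 31.6 CPM (1.53 ± 0.05). *Itgb3*, whose product pairs with αv to bind osteopontin, had 13.3 and 14.2 CPM against 6.09 and 5.78 CPM (1.29 ± 0.13). The αv gene *Itgav* (0.50 ± 0.06), *Itgb5* (0.40 ± 0.05) and *Itgb1* (0.96 ± 0.03) were not called, and the collagen receptor gene *Itga1* was lower (-1.27 ± 0.10).

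Bone genes other than *Spp1* were mostly lower. None of 18 tested bone matrix and osteoblast genes was called higher than in the other cells, and 12 were called lower, with a median log2 fold change of -2.25. Without replicate B *Dmp1* was at -0.91 and 11 were called. *Ibsp*, the bone sialoprotein gene, had 10.6 and 42.9 CPM against 539 and 792 CPM (-4.65 ± 0.13), with a gap between the replicates inside the *Cnn1*-high cells as well. The osteoblast transcription factor gene *Runx2* had 24.0 and 22.1 CPM against 57.9 and 61.2 CPM (-1.29 ± 0.07), and *Sp7*, encoding osterix, had 1.07 and 3.61 CPM against 21.0 and 22.6 CPM (-3.17 ± 0.19). *Alpl*, the alkaline phosphatase of mineralizing cells, had 7.08 and 10.9 CPM against 88.9 and 101 CPM (-3.33 ± 0.09). All 4 genes were lower in both replicates. The osteocalcin genes *Bglap* and *Bglap2* were at most 0.516 CPM in the *Cnn1*-high cells and at 6.30 to 9.75 CPM in the other cells. *Dlx5*, an osteoblast homeobox gene, had 5.44 and 5.24 CPM against 28.5 and 30.8 CPM (-2.40 ± 0.10). *Ank*, which encodes a pyrophosphate transporter that limits mineralization, was at 39.5 and 37.5 CPM against 22.6 and 22.1 CPM (0.86 ± 0.07, not called).

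Cartilage and immune genes were lower. All 20 chondrocyte genes were called lower than in the other cells, with a median log2 fold change of -3.40, and *Col2a1* was at 419 and 743 CPM against 5825 and 5554 CPM (-3.27 ± 0.11). The summed level of this list was 1344 and 2167 CPM against 16245 and 15698 CPM. Of the immune and osteoclast genes 10 of 11 were called lower, and the macrophage lysozyme gene *Lyz2* had 0.930 and 0.885 CPM against 66.8 and 76.6 CPM. Tendon genes had 0 of 8 called higher and 4 lower, with *Scx* at 63.8 and 67.1 CPM against 64.0 and 59.6 CPM. Perichondrial and fibroblast genes had 1 of 10 called higher and 3 lower, among them *Dcn* at 6.01 and 8.85 CPM against 72.0 and 75.8 CPM and *Pdgfra* at 7.01 and 10.1 CPM against 32.6 and 31.1 CPM. Of the joint genes, 2 of 11 were called higher and 4 lower, and of the hypertrophic cartilage genes 0 of 7 higher and 6 lower. Of the limb patterning and HOX genes 0 of 17 were called higher and 2 lower, with a median log2 fold change of -0.09 beside -0.08 over all genes and a share of lower calls near the 9.02% of all genes.

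A few genes of other lists were higher. *Krt18*, a keratin of simple epithelia, had 96.7 and 74.3 CPM against 21.9 and 27.7 CPM (1.87 ± 0.08), and *Krt19* was called as well, while *Krt14* was at 0 and 0.0738 CPM and *Epcam* at 0.0716 and 0.148 CPM. *Flt1*, the VEGF receptor 1 gene, had 32.3 and 21.8 CPM against 7.20 and 6.26 CPM (2.08 ± 0.09), with the endothelial genes *Kdr* at 0.215 and 0.0738 CPM and *Pecam1* at 0.143 and 0.221 CPM. *Stmn2*, best known in neurons, had 245 and 139 CPM against 56.3 and 40.6 CPM (2.03 ± 0.12), and *Sox10*, a glial marker, was at 0 in both replicates. *Acta1*, the skeletal actin gene, had 55.5 and 88.0 CPM against 12.8 and 13.5 CPM (2.50 ± 0.10), with *Myod1* and *Ttn* at 0 in both replicates and *Myog* at 0 and 0.0738 CPM. The actins are near-identical as proteins, and whether counts of *Acta1* and *Actg2* hold any reads of *Acta2* was not tested. The whole lists gave 2 of 10 surface and epithelial genes called higher and 1 lower, with summed levels of 128 and 98.2 CPM against 37.7 and 52.3 CPM. Of 6 endothelial genes 1 was called higher and 1 lower (57.7 and 47.9 against 28.1 and 27.8 CPM), of 6 neural and glial genes 2 and 1 (263 and 155 against 65.5 and 50.1 CPM), and of 13 skeletal muscle genes 1 and 6 (59.2 and 92.8 against 17.8 and 32.9 CPM). All 4 sums were above those of the other Day 10 cells as a whole, but not all were above every group within them. The *Wnt10a* or *Cd34* cells had surface and epithelial sums of 131 and 273 CPM, above the *Cnn1*-high cells in both replicates. Their neural and glial sums were higher too, at 346 and 232 CPM. The *Cnn1*-high *Spp1*-low cells had skeletal muscle sums of 92.7 and 48.9 CPM, above the *Cnn1*-high cells in replicate A only. Endothelial sums were highest in the *Cnn1*-high cells in both replicates. The defining markers named here were at or near 0 in the *Cnn1*-high cells.

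Outside the lists, large differences were found in *Gjb2*, which encodes connexin 26, at 108 and 112 CPM against 21.7 and 19.4 CPM (2.50 ± 0.07), and *Mgll*, encoding monoacylglycerol lipase, at 213 and 248 CPM against 45.4 and 50.3 CPM (2.34 ± 0.05). Of 12 dissociation response genes, 0 were called higher and 3 lower, with *Fos* at 65.9 and 71.9 CPM against 331 and 345 CPM (-2.22 ± 0.05).

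Of 15 genes of dividing cells, 2 were called higher and 1 lower, beside 3.31% and 9.02% of all genes. *Mki67*, a proliferation marker, had 33.6 and 42.9 CPM against 46.2 and 51.2 CPM (-0.28 ± 0.06, not called). The cell cycle inhibitor genes split: *Cdkn2a*, of the INK4A and ARF proteins, had 260.2 and 267 CPM against 93.5 and 98.5 CPM (1.53 ± 0.07), *Cdkn2b* was also higher (1.06 ± 0.06), and *Cdkn1c*, encoding p57, had 102 and 171 CPM against 964 and 1019 CPM (-2.82 ± 0.07). In the split by *Cnn1*, *Mki67* was 22.1 CPM in the upper against 44.4 CPM in the lower part of replicate A, and 26.7 against 58.3 CPM in replicate B. The part of the *Cnn1* limit and of depth in this difference was not tested.

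The *Cnn1*-high cells were compared with the *Cnn1*-high *Spp1*-low cells. Against that group 0.0571% of all genes were called higher and 0.271% lower, which were 8 and 38 of 14005 genes. None of the 22 contractile genes, the 9 SRF genes or the 19 YAP and CCN genes was among them, and the median log2 fold change of the contractile genes was -0.03. The 15 tested osteopontin receptor and integrin genes also had 0 calls (median 0.01), with summed levels of 1223 and 1206 CPM against 1224 and 1216 CPM for the whole list. With so small a share of all genes called, a count of 0 in these lists is near the background. The DESeq2 Wald test called *Myh11* and *Ccn3* lower (-1.52 and -1.21), as did the fit with no filter on low counts (-1.51 and -1.24), which also called *Myocd* lower (-1.39). Of all genes, 25 rather than 46 were called without the library as a block. *Rgs5* was at 10.3 and 11.1 CPM against 25.8 and 50.2 CPM (-1.75 ± 0.21), a call that was lost without the block. Also among the 46 were *Nog*, at 3.43 and 5.09 CPM against 8.37 and 13.3 CPM (-1.31 ± 0.23), *Dcn*, at 6.01 and 8.85 CPM against 16.4 and 22.2 CPM (-1.35 ± 0.25), *Hoxa13*, at 5.01 and 3.25 CPM against 9.41 and 9.68 CPM (-1.18 ± 0.17), and the pentraxin gene *Ptx3*, at 46.9 and 41.8 CPM against 106 and 99.1 CPM (-1.18 ± 0.08). Of the bone genes *Ank* was called, at 39.5 and 37.5 CPM against 20.7 and 18.5 CPM (1.002 ± 0.14), and it was below the size for a call with cells thinned to 3000 UMIs (0.79) and with no filter on low counts (0.989). *Dmp1* was called higher by the DESeq2 Wald test (2.96) and with no filter (2.92), and *Sp7* lower with no filter (-1.08). Of 20 chondrocyte genes 0 were called, but 1 alone had a positive log2 fold change (median -0.84). Their summed level was 1344 and 2167 CPM against 2576 and 3360 CPM. *Snorc* and *Matn1* were called lower with no filter (-1.06 and -1.06) and on thinned cells (-1.31 and -1.42).

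The 8 genes called higher than in the *Cnn1*-high *Spp1*-low cells, chosen here after their values were seen, were *Ank*, *Ano1*, *Cd74*, *Cx3cl1*, *Ccl17*, *Il1rl1*, *Il1rn* and *Serpina3g*. The calls were 5 higher and 20 lower without the library as a block, and 3 and 16 on cells thinned to 3000 UMIs. They were 14 and 58 by the DESeq2 Wald test, and 31 and 116 with no filter on low counts. Apart from *Ank*, the genes named in this paragraph were not followed through these alternatives. *Cx3cl1*, encoding the chemokine fractalkine, had 19.5 and 22.1 CPM against 10.3 and 8.92 CPM (1.14 ± 0.10). *Ccl17*, also a chemokine gene, had 10.6 and 26.7 CPM against 4.73 and 5.69 CPM (1.80 ± 0.27). *Il1rl1*, the receptor for interleukin 33, had 10.3 and 9.07 CPM against 3.75 and 3.93 CPM (1.36 ± 0.28), and *Il1rn*, the interleukin 1 receptor antagonist, had 16.1 and 26.2 CPM against 7.67 and 9.62 CPM (1.31 ± 0.18). Among the 38 called lower, *Wnt16* was at 15.7 and 13.1 CPM against 30.2 and 36.3 CPM (-1.18 ± 0.21), *Sfrp2*, a secreted Wnt inhibitor gene, at 14.96 and 16.3 CPM against 30.1 and 36.4 CPM (-1.06 ± 0.19), *Lgr5*, an R-spondin receptor gene, at 2.36 and 3.39 CPM against 6.25 and 5.75 CPM (-1.03 ± 0.22), and *Fgf18* at 1.14 and 1.48 CPM against 4.40 and 3.05 CPM (-1.49 ± 0.26).

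The *Spp1*-high *Cnn1*-low cells shared *Spp1* but not the contractile levels of the *Cnn1*-high cells. Against them 2.83% of all genes were called higher in the *Cnn1*-high cells and 7.31% lower. Of the contractile genes, 17 of 22 were called higher and 0 lower, with a median log2 fold change of 1.48. *Ankrd1* had the largest positive log2 fold change among the called genes that reached a mean of 50 CPM in the higher group (4.18 ± 0.25). Of the bone genes, 12 of 16 were called lower and 0 higher, with *Ibsp* at 196 and 285 CPM (-3.09 ± 0.75), *Alpl* at 52.0 and 57.9 CPM (-2.53 ± 0.14) and *Dmp1*, an osteocyte matrix gene, at 12.3 and 21.9 CPM in the *Spp1*-high *Cnn1*-low cells. *Spp1* itself was of the same order in both, at 4779 and 4804 CPM in these cells. They also held the macrophage genes, with *Lyz2* at 164 and 159 CPM against 0.930 and 0.885 CPM in the *Cnn1*-high cells, and 9 of 11 immune genes were called lower in the *Cnn1*-high cells. *Cd44* was higher in the *Cnn1*-high cells against this group too (1.22 ± 0.08).

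Against the *Prg4*-positive cells, 3.16% of all genes were called higher in the *Cnn1*-high cells and 2.91% lower. The contractile list had 14 of 22 called higher and 0 lower, and *Actg2* had the largest difference in it (4.33 ± 0.27). Of 16 bone genes 0 were called higher and 1 lower, and of 20 chondrocyte genes 0 and 4. The bone count varied: the DESeq2 Wald test called 3 lower, thinned cells gave 0, and with no filter on low counts 4 were lower and *Ibsp* was higher (2.09). On thinned cells 2 chondrocyte genes were lower. Limb patterning genes went both ways: *Shox2*, a homeobox gene of the proximal limb, had 35.4 and 37.1 CPM against 5.95 and 8.45 CPM (2.39 ± 0.11), and *Hoxa13*, a patterning gene of the autopod, had 5.01 and 3.25 CPM against 31.6 and 32.8 CPM (-2.91 ± 0.14). *Hoxd9*, *Meis1* and *Meis2* were also called higher, and *Hoxd12*, *Hoxd13* and *Msx1* lower, 4 and 4 of the 17 genes of this list.

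Cells that met the rule were then compared between days. The same *Cnn1* limit chose the cells on each day, and in the split by *Cnn1* at Day 10 *Acta2*, *Tagln*, *Myl9* and *Lmod1* were higher in the upper part. The part of the limit in contractile levels between days was not tested. They were 1.70% and 1.75% of the Day 7 cells and 2.03% and 0.852% of the Day 2 cells, against 3.26% and 3.14% at Day 10. The intervals of both Day 10 shares lay above those of all 4 earlier libraries. The Day 10 libraries were also the deepest, and deeper cells reach the limit of 10 *Cnn1* UMIs more easily. Cells that passed the filter had medians of 29354 and 27884 UMIs at Day 10 and 19537 and 18350 at Day 7. At Day 2 the medians were 19463 and 12899 UMIs. With cells thinned to 10000 UMIs the shares at Day 2 were 1.004% and 0.838%, those of Day 7 were 1.53% and 1.44%, and those of Day 10 were 2.44% and 1.92%. Both Day 10 libraries were then above both Day 7 libraries, and these above both Day 2 libraries, but the intervals of Day 7 (1.25 to 1.86 and 1.16 to 1.77) and Day 10 (2.09 to 2.82 and 1.62 to 2.27) overlapped between both Day 7 replicates and Day 10 replicate B. With 2 libraries a day these shares were not tested.

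**Figure D3:**
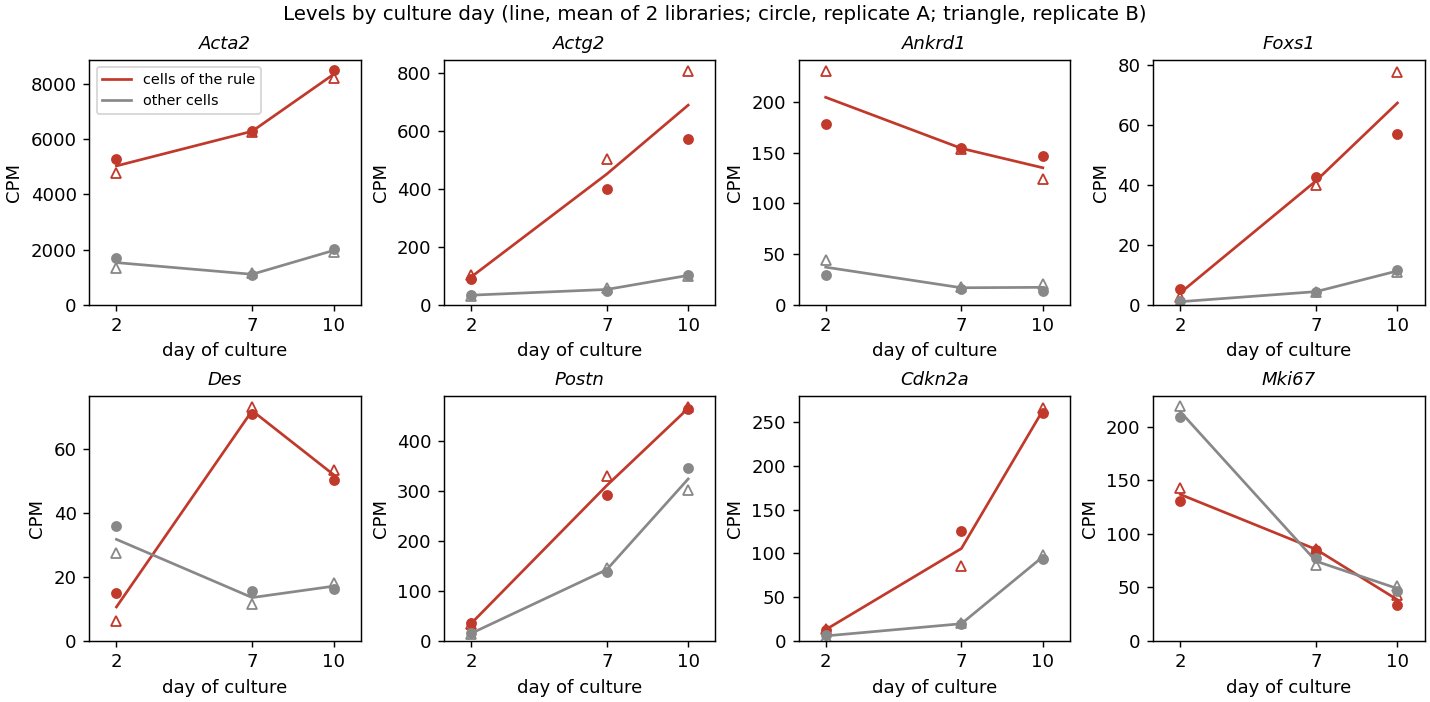
Levels of 8 genes by day of culture in the cells that met the rule and in all other cells, in CPM, with lines through the means of 2 libraries, a circle for replicate A and a triangle for replicate B. *Cdkn2a* in the cells of the rule goes from 12.1 and 13.2 CPM at Day 2 to 260.2 and 267 CPM at Day 10, and *Ankrd1* lies above the other cells on every day.

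Between the *Cnn1*-high cells of Day 7 and Day 10, 0.468% of all genes were called higher at Day 10 and 1.75% lower, with 0 of the 22 contractile genes in either direction (median log2 fold change 0.06). Values of contractile genes that were not called are given as a description. *Acta2* had 6314 and 6270.0 CPM at Day 7 and 8503 and 8215 CPM at Day 10, which did not overlap, but the log2 fold change of 0.40 ± 0.08 was below the size set for a call. *Tagln* had 5804 and 5786 CPM at Day 7 (edgeR log2 fold change 0.12 ± 0.08), *Ankrd1* 154 and 154 CPM (edgeR -0.20 ± 0.11) and *Foxs1* 42.6 and 40.1 CPM (edgeR 0.70 ± 0.15). None of these 4 genes was called.

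*Cdkn2a* rose in the *Cnn1*-high cells from 125 and 85.8 CPM at Day 7 to 260.2 and 267 CPM at Day 10 (edgeR log2 fold change 1.31 ± 0.12, adjusted p = 3.8e-05). In the other cells it was at 18.7 and 20.2 CPM and then 93.5 and 98.5 CPM. *Mki67* fell, from 84.9 and 85.7 CPM to 33.6 and 42.9 CPM (edgeR -1.17 ± 0.11, adjusted p = 3.7e-05), beside 77.6 and 70.9 CPM and 46.2 and 51.2 CPM in the other cells. *Top2a* fell too, and of 15 genes of dividing cells 1 was called higher and 3 lower. For *Cdkn2a* and *Mki67* the other cells moved in the same direction. *Ccn1*, which encodes the matrix protein CYR61, rose from 167 and 208 CPM to 422 and 375 CPM (edgeR 1.08 ± 0.10, adjusted p = 4.0e-05), beside 229.6 and 227 CPM and 374 and 347 CPM in the other cells. Without Day 10 replicate A it was at 0.999, just under the limit for a call, and 1 rather than 3 genes of dividing cells were called lower. Of the 12 dissociation response genes, 2 rose from Day 7 to Day 10 and 0 fell: *Fosb* (edgeR 1.08 ± 0.20, adjusted p = 0.00301) and *Zfp36* (edgeR log2 fold change 1.004 ± 0.16, adjusted p = 0.00167). All 12 had positive log2 fold changes, with a median of 0.52, and without Day 10 replicate A 1 was called. From Day 2 to Day 10 4 of the 12 rose and 0 fell. Their part in the other differences between days was not tested.

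*Ibsp* rose from 1.56 and 0.244 CPM at Day 7 to 10.6 and 42.9 CPM at Day 10 (edgeR 4.89 ± 0.79, adjusted p = 0.00197), and *Alpl* from 2.48 and 2.19 CPM to 7.08 and 10.9 CPM (edgeR 1.93 ± 0.28, adjusted p = 7.6e-04). They were 2 of 11 tested bone genes called higher, with 0 lower and a median log2 fold change of 0.15, and *Alpl* was not called by the DESeq2 Wald test (1.95). With cells thinned to 3000 UMIs 4 bone genes were tested and 0 called. In the other cells *Ibsp* went from 3.31 and 5.13 CPM to 539 and 792 CPM, a far larger step in CPM, and free *Ibsp* RNA reaching the *Cnn1*-high cells was not tested. *Krt18* fell from 180.4 and 186 CPM to 96.7 and 74.3 CPM (edgeR -1.11 ± 0.12, adjusted p = 1.3e-04), but this call was lost without Day 10 replicate B, at -0.93.

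Histone genes, whose transcripts are made mostly in dividing cells, were 5 of the 10 called genes with the largest falls from Day 7 under the rule for named genes. *Hist1h2ap* fell from 759.7 and 933 CPM to 66.0 and 11.9 CPM (edgeR -4.45 ± 0.45, adjusted p = 7.4e-05), beside 545 and 479 CPM and 58.3 and 8.72 CPM in the other cells, with replicate B the lower at Day 10 in both. *Hist1h2ae* fell from 122 and 134 CPM to 18.8 and 15.1 CPM (edgeR -2.92 ± 0.12, adjusted p = 2.1e-08), beside 90.8 and 74.5 CPM and 20.5 and 11.9 CPM in the other cells. *Hist1h4d* (edgeR -2.89 ± 0.20), *Hist1h1e* (edgeR -2.33 ± 0.15) and *Hist1h1b* (edgeR -1.53 ± 0.18) fell too. Many histone genes are near-identical copies, so reads may be split among them. *Gm42418*, a locus that overlaps ribosomal RNA, had 7777 and 7453 CPM at Day 7 and 1408 and 1278 CPM at Day 10, and 27589 and 29909 CPM and 2436 and 2376 CPM in the other cells. *Gm10076* was at 1719.9 and 1618 CPM at Day 7 and 587 and 132 CPM at Day 10, and 1985 and 1896 CPM and 689 and 147 CPM in the other cells. The Day 10 libraries differed from each other in *Gm10076*, with replicate B the lower in both groups of cells.

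Between Day 2 and Day 10 12.4% of all genes were called higher at Day 10 in the cells of the rule and 11.2% lower. Of the 22 contractile genes 3 rose and 1 fell, a share of higher calls near that of all genes. *Tagln* was at 6026 and 5649 CPM at Day 2 (edgeR log2 fold change 0.23 ± 0.08). *Acta2* went from 5297 and 4772 CPM to 8503 and 8215 CPM (edgeR 0.84 ± 0.08), below the size for a call. The replicates of the 2 days did not overlap in *Acta2*. *Actg2* rose from 87.8 and 103 CPM to 573 and 806 CPM (edgeR 2.98 ± 0.16, adjusted p = 5.3e-09). *Tpm2* rose from 533 and 489 CPM to 1739 and 1746 CPM (edgeR 1.88 ± 0.08, adjusted p = 8.5e-10), and *Des* from 14.9 and 6.204 CPM to 50.4 and 53.6 CPM (edgeR 2.25 ± 0.20, adjusted p = 6.0e-07). *Filip1l* fell from 525 and 553 CPM to 188 and 164 CPM (edgeR -1.50 ± 0.08, adjusted p = 6.4e-09). In the SRF list *Myocd* fell from 6.96 and 9.18 CPM to 1.36 and 0.664 CPM (edgeR -2.82 ± 0.34, adjusted p = 1.0e-05), and *Fhl1* and *Mrtfa* rose, though *Mrtfa* was at 0.98 and not called without Day 10 replicate A.

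*Foxs1* was low in the cells that met the rule at Day 2. It rose from 5.39 and 2.48 CPM to 56.9 and 77.8 CPM (edgeR 4.04 ± 0.23, adjusted p = 9.1e-09), beside 1.12 and 0.854 CPM and 11.5 and 11.1 CPM in the other cells. *Ankrd1* was not called, at 179 and 231 CPM at Day 2 (edgeR -0.47 ± 0.11). *Ccn5*, a CCN gene of smooth muscle, was at 0.786 and 0 CPM at Day 2 and 124 and 126 CPM at Day 10 (edgeR adjusted p = 5.3e-11), but it was as high in the other cells of Day 10, at 121 and 114 CPM. Of the 19 YAP and CCN genes 6 rose and 0 fell, and of 13 mural genes 4 rose and 2 fell. Of 26 TGF-β and activin genes 7 rose and 6 fell, and of 15 integrin and receptor genes 4 rose and 4 fell. Beside these, 12.4% of all genes rose and 11.2% fell, and the falls of mural genes were near that share. Without Day 10 replicate A, and by the DESeq2 Wald test, 4 YAP and CCN genes were called higher and 1 lower, with *Ccn1* (0.94 and 0.999) and *Nuak2* (1.17 and 1.32) losing their calls and *Tead2* gaining one (-1.04 and -1.01). The fall of *Ebf2* in the mural list was not called without Day 10 replicate B (-1.04) or by the DESeq2 Wald test (-1.56).

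Many matrix genes rose with days of culture. Of 24 myofibroblast matrix genes 11 rose and 0 fell, with a median log2 fold change of 0.80 against 0.01 over all genes. *Postn*, encoding periostin, rose from 35.9 and 32.5 CPM to 463 and 466 CPM (edgeR 3.86 ± 0.10, adjusted p = 2.2e-11), and *Lox*, the collagen crosslinking enzyme, from 28.8 and 54.6 CPM to 451 and 409.8 CPM (edgeR 3.57 ± 0.19, adjusted p = 4.5e-09). *Timp1* rose from 176 and 155 CPM to 1263 and 1622 CPM (edgeR 3.23 ± 0.12, adjusted p = 2.8e-10), and *Col1a1* from 1140.4 and 1041 CPM to 3122 and 3025 CPM (edgeR 1.61 ± 0.08, adjusted p = 3.1e-09). The other cells moved the same way in *Postn*, from 15.8 and 13.3 CPM to 346 and 301 CPM, and in *Col1a1*, from 536 and 564 CPM to 3375 and 2963 CPM.

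Cartilage transcripts rose in these cells as well, with 14 of 20 chondrocyte genes called higher and 0 lower. *Col2a1* had 108 and 159 CPM at Day 2 and 419 and 743 CPM at Day 10 (edgeR 2.26 ± 0.25, adjusted p = 4.9e-06), beside 630.1 and 716 CPM and 5825 and 5554 CPM in the other cells. Per cell at Day 10, *Col2a1* had a 10th percentile of 0.770, a median of 1.52 and a 90th percentile of 3.14 UMIs in 10000 in replicate A, and of 0.676, 1.27 and 3.70 in replicate B. Most of the cells thus held *Col2a1* UMIs, but the level of the whole group lay above the 90th percentile in both replicates. The part of free cartilage RNA in this rise was not tested.

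*Cdkn2a* rose from 12.1 and 13.2 CPM at Day 2 to 260.2 and 267 CPM (edgeR 4.51 ± 0.17, adjusted p = 2.8e-10), beside 6.81 and 4.18 CPM and 93.5 and 98.5 CPM in the other cells. *Mki67* fell from 131 and 143 CPM (edgeR -1.72 ± 0.11, adjusted p = 2.4e-08), and 8 of 15 genes of dividing cells were called lower, with 2 higher. Simple keratins fell, *Krt18* from 344 and 274 CPM (edgeR -1.75 ± 0.12, adjusted p = 6.7e-08), as did *Krt8*, *Krt19* and *Krt7*. Limb patterning genes had 1 of 17 called higher, *Hoxd13* (edgeR 1.54 ± 0.29, adjusted p = 4.2e-04), and 9 lower. Among these, *Shox2* fell from 128 and 148 CPM to 35.4 and 37.1 CPM (edgeR -1.80 ± 0.09, adjusted p = 4.6e-09), and *Meis2* from 61.8 and 77.4 CPM to 15.4 and 16.7 CPM (edgeR -1.98 ± 0.12, adjusted p = 1.9e-08). Histone genes were 6 of the 10 largest falls from Day 2 by the same rule, with *Hist1h2ap* at 1326 and 1370.4 CPM (edgeR -5.00 ± 0.46, adjusted p = 7.8e-07) and *Hist1h3c* (edgeR -4.78 ± 0.16, adjusted p = 1.1e-10) first among them. *Stmn4* fell from 83.5 and 61.3 CPM to 2.00 and 1.25 CPM (edgeR -5.37 ± 0.22, adjusted p = 6.5e-10) and *Gap43* fell too (edgeR -3.95 ± 0.17, adjusted p = 8.5e-10). Of 2 tested neural and glial genes 1 was called, *Stmn2*, which rose (edgeR 2.88 ± 0.38, adjusted p = 2.2e-05).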

How the data were processed

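Per the deposited files, the authors made the UMI counts per gene and cell barcode with Cell Ranger 6.1.2 and STAR on GRCm38, so the counts carried no normalization. All 6 libraries (Days 2, 7 and 10, replicates A and B) were used. The cell filter and the rule were applied to each library, and counts were summed over the cells of each group. Sums were compared in edgeR 4.0.16 (R 4.3.3; filterByExpr, TMM, quasi-likelihood test, Benjamini-Hochberg adjustment over all genes tested) in 3 fits: group within day with the library as a block (18007 genes), Day 10 groups with the library as a block (14010 genes) and cells of the rule by day (12395 genes). A call needed an adjusted p under 0.05 and an absolute log2 fold change of at least 1. The 5 genes of the rule stayed out of all counts of calls.

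The cells and gene lists were chosen with earlier results of these data known. Named genes were those of the contractile, SRF, YAP, mural, bone and receptor lists, called members and defining markers of the other lists, and for each comparison up to 10 called genes in each direction that reached 50 CPM in a group without overlap of replicates, mitochondrial and ribosomal protein genes left out. In the fits with the library as a block, p-values rest on how differences between groups of cells vary from library to library. In the fit by day they rest on the spread between the 2 cultures of a day. The spread was pooled over the days or Day 10 groups of a fit and drawn toward that of other genes. Binomial intervals cover counting error only. Scrublet scores came from scanpy 1.11.5, and no doublets were removed. The scripts were tested on simulated data. Promoters came from RefSeq for GRCm38.p6. DESeq2 1.42.0, other size factors and filters, thinning, depth matching, other limits and leaving out each Day 10 replicate were tried as alternatives. Results for some genes of the lists are not reported here.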

Additional observations from a re-analysis of the deposited data

Results flagged for a closer look

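2 genes lay on opposite sides of the other cells at Day 10 and Day 2, each replicate differing by more than 1 on the log2(CPM + 1) scale, and these differences between days were not tested. *Des*, the desmin gene, had 50.4 and 53.6 CPM in the *Cnn1*-high cells and 16.2 and 17.9 CPM in the other cells at Day 10, a mean difference of 1.55. At Day 2 it had 14.9 and 6.204 CPM in the cells of the rule and 35.9 and 27.5 CPM in the others, a difference of -1.60, with the skeletal muscle marker gene *Myog* at 1.23 and 0.496 CPM and 47.1 and 32.4 CPM, and the part of muscle cells was not tested. *Nnat*, encoding neuronatin, had 6.37 and 5.24 CPM against 1.96 and 1.64 CPM at Day 10, a difference of 1.28, and 99.3 and 84.6 CPM against 209 and 186 CPM at Day 2, a difference of -1.10.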

How the results depend on the processing

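Depth changed the number of calls in every comparison. Thinned to 3000 UMIs a cell, the calls numbered 1093 rather than 2219 against the other Day 10 cells, 83 rather than 275 against Day 7, 1253 rather than 2926 against Day 2, 19 rather than 46 against *Cnn1*-high *Spp1*-low, 646 rather than 1420 against *Spp1*-high *Cnn1*-low and 361 rather than 851 against *Prg4*-positive cells. The genes tested fell as well, from 18002 to 14521 against the other cells and from 12390 to 6324 between days. Between the Day 10 groups they fell from 14005 to 9329. Some genes were called only on thinned cells. With the other cells drawn to the same depth 1384 of 14368 genes tested were called against them. The DESeq2 Wald test called 105 against Day 7 and 72 against *Cnn1*-high *Spp1*-low cells, and 147 were called in the latter with no filter on low counts. Without that filter 106 rather than 58 genes were called higher than at Day 7. Leaving out a Day 10 replicate gave 1805 to 1823 calls against the other cells, 219 to 239 against Day 7 and 2873 to 2914 against Day 2, the lone replicate being assumed to vary like the other sums. The fit of the 6 Day 10 groups has no residual degrees of freedom left with 1 library, so no test was run there.

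Without the replicate block the counts were 2299 against the other cells and 25 against *Cnn1*-high *Spp1*-low cells. With the replicate letter as a block they were 278 against Day 7 and 2928 against Day 2. The deviations of same-lettered sums correlated at 0.08, -0.08 and 0.16 over 2296 genes for the 3 pairs of days, so the letter was not taken to pair cultures. The other alternatives kept the total of calls in each comparison within 1.5 times, among them the fit without the upper limit of 7500 genes (1741 calls), which was chosen after seeing the data.

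The share of *Cnn1*-high cells moved from 3.26% and 3.14% to 2.44% and 1.92% on thinned cells, and to 2.61% and 2.59% with the cell filter of the study's methods. Directions turned in 3 single genes: *Ebf2* against the other cells (0.0695, thinned), *Mmp3* against the other cells (0.27 with at least 5 *Cnn1* UMIs) and *Bex2* against Day 7 (0.24, thinned). The cause was not tested.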
